A study of Danio rerio with 2 samples.

Results

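The strong MYC-only accessible sites are the ATAC-seq peaks that were called with a high score in neuroblastoma cells of MYC transgenic zebrafish and had no counterpart in neuroblastoma cells of MYCN transgenic zebrafish. A MYC peak was included when it lay on 1 of the 25 chromosomes, had a score of at least 110, the median of its list, and had no MYCN peak overlapping it or within 1000 bp. Of 77836 MYC peaks, 2716 met this rule. They made up 6.83% of the 39793 MYC peaks with such a score, a share that depends on the score and distance limits of the rule. They were 3.49% of all MYC peaks on these chromosomes. The sites were selected on these measured scores and on the absence of a called MYCN peak. In the study, tumour cells positive for the dbh:EGFP reporter were isolated by flow sorting from fish of either transgene, and 50000 cells entered each transposition. Each transgene had 1 library, so every difference below is between these libraries, and the spread between tumours is unknown. The labels give neither the promoter that drives MYC or MYCN, nor the number, strain or age of the fish. The tumour cell type was not checked, since the peak lists carry no gene names.

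ATAC-seq marks open chromatin because the Tn5 transposase inserts adapters where DNA is not wrapped tightly around nucleosomes, so peaks tend to lie at active promoters, enhancers and other regulatory sites. MYC and MYCN are close relatives that bind E-box sequences with their partner MAX and are known to bind largely at chromatin that is already open. MYCN amplification is a known driver of human neuroblastoma, a tumour of the sympathetic nervous system, and dbh encodes the enzyme that makes noradrenaline in those cells.

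The scores and the comparison of the lists chose the sites, so their scores, widths and distances to MYCN peaks are given as a description. The deposited score is the authors' whole number per peak and is used to rank, filter and describe peaks within each list. How deeply the libraries were sequenced is unknown, so a site weakly open in MYCN cells and a site closed in them cannot be told apart. Intervals are 95% intervals that cover counting error alone, and neighbouring peaks are not independent.

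Most strong MYC-only sites were of moderate strength and narrow. The median score was 137 (quartiles 121 and 170), against 234 (158 and 364) for the 37077 MYC peaks of at least 110 that had a MYCN peak overlapping or within 1000 bp, called paired MYC peaks here. Strong is used for scores of at least the median of the list, 110 in MYC and 99 in MYCN. The median width was 320 bp (quartiles 285 and 400, range 201 to 1065), against 452 bp (344 and 588) for the paired MYC peaks. A score of 200 was reached by 378 sites, a score of 300 by 68 and a score of 500 by 6. The highest 10% of the whole MYC list held 24 of them. The sites therefore lay mostly just above the score minimum, with a thin tail of strong ones.

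The share of MYC peaks without a MYCN counterpart fell with score. It was 19.9% (95% Wilson interval 18.8 to 21.0) at scores of 110 to 129, 14.5% at 130 to 149 and 8.72% at 150 up to 200. It was 3.28% at 200 to 299, 0.710% at 300 to 499 and 0.137% (0.0629 to 0.299) at 500 or more. The median width was lower for the MYC-only sites in every score class. At scores of 110 to 129 the median was 302 bp (interval of the median 297 to 306) for the MYC-only sites and 338.5 bp (333 to 344) for the paired peaks. At scores of 200 to 299 it was 359.5 bp (351 to 376) against 451 bp (446 to 456). At 500 or more, the 6 sites gave a median of 439.5 bp with an interval of 370 to 797, which includes the 586 bp of the paired peaks. A wider peak has more room to overlap a MYCN peak, so width is partly tied to the rule.

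**Figure D1:**
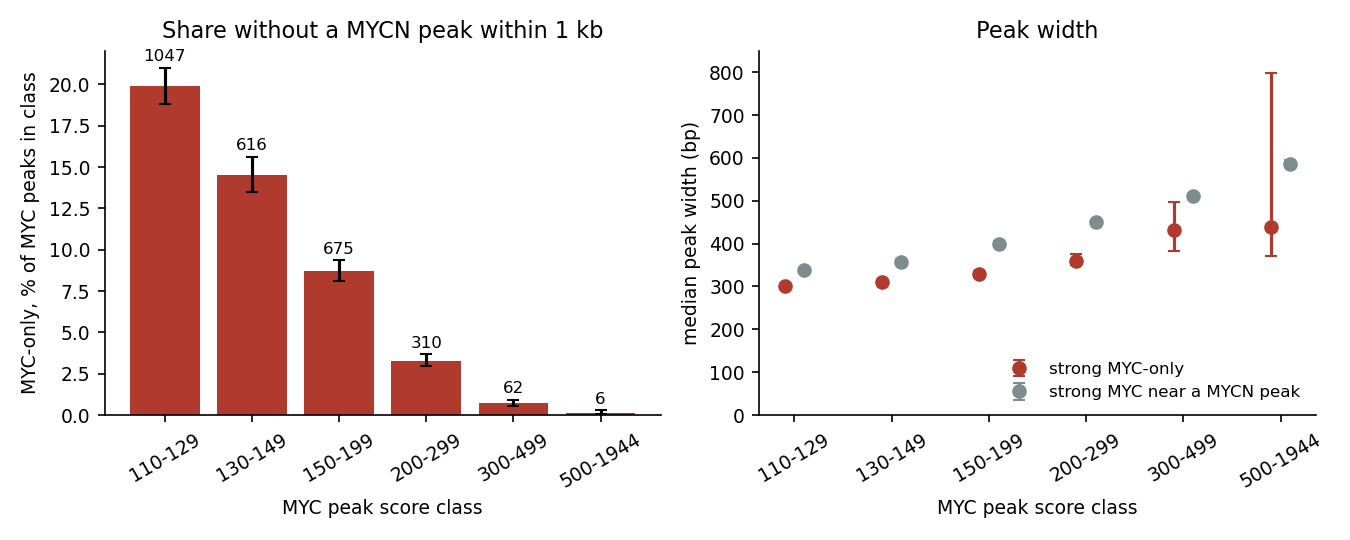
Left, percent of MYC peaks in each score class that had no MYCN peak within 1 kb (bars, 95% Wilson intervals, number of sites above each bar). Right, median peak width in bp with its 95% interval for strong MYC-only sites and for paired MYC peaks. The share falls from 19.9% to 0.137% with score, and the MYC-only median width is the lower of the pair in each class.

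Paired MYC peaks of similar score had MYCN counterparts spread over a broad range of MYCN scores. Among MYC peaks of 110 to 129 that overlapped a MYCN peak, the highest-scoring counterpart had a median score of 90 (quartiles 63 and 127), and the lowest score in the MYCN list was 13. Of these 4045 counterparts, 209, or 5.17% (4.53 to 5.89), scored below 40. In the whole MYCN list, 9.26% of peaks scored below 40. These shares are not like for like, since the highest-scoring overlapping MYCN peak was taken as the counterpart. A further 1047 MYC peaks of the class had no MYCN peak within 1000 bp. Counterparts exist only where a MYCN peak was called. Whether the sites without one were weakly open in MYCN cells was therefore not tested. The scores of the lists need not be on the same scale.

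The rule's score minimum fell on a score held by many MYC peaks, while few lay close to its distance limit. Exactly 110 was the score of 272 sites, or 10.0% of all, with a median width of 307.5 bp. One score unit lower, 35 MYC peaks without a MYCN peak within 1000 bp fell just outside, with a median width of 279 bp. Scores were uneven at this point, since 1041 MYC peaks in all scored 110 and 170 had the score just below. At the distance limit, 14 sites lay 1009 to 1095 bp from a MYCN peak, with a median score of 138, and 20 MYC peaks at 906 to 995 bp were left out, with a median score of 129.5. In all, 405 of the 3121 MYC peaks of at least 110 that overlapped no MYCN peak were left out because a MYCN peak lay within 1000 bp.

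Among neighbouring peaks, one with at least 1 bp in common with the other list is called shared and any other unshared. The 20 highest-scoring sites lay on 14 chromosomes with scores of 409 to 904. Counts of MYC peaks within 50 kb of a site leave out the site itself. Within 50 kb, 14 of them had more MYC than MYCN peaks around them, 3 had equal numbers and 3 had fewer. Over all strong MYC-only sites, 68.2% had more MYC than MYCN peaks around them. This share was not computed for paired MYC peaks. The MYC list is the longer, with 77836 peaks against 68559, and the rule removes MYCN peaks within 1000 bp of a site. Paired MYC peaks also had a mean of 7.47 other MYC peaks against 6.16 MYCN peaks beyond 1 kb. For the MYC-only sites the means were 7.27 and 5.71.

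The site with the highest score, 904, lay at chr22:28947321-28947690 and ranked 180 in the MYC list. It was 370 bp wide, among the 5 narrowest of the 20. The nearest MYC peak, itself a strong MYC-only site, was 79.2 kb away. The nearest MYCN peak was 59.2 kb away and had a score of 31. This site therefore stood alone, with no neighbour of either list within 50 kb.

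The second site, at chr19:33576486-33577282, scored 687 and was 797 bp wide. It had 4 MYC peaks within 50 kb, all 4 unshared, and no MYCN peak. A strong MYCN-only site, defined in the same way from the MYCN list, lay 129 kb away. The third, at chr21:3309794-3310371 with a score of 658, had 5 MYC peaks and 2 MYCN peaks within 50 kb. The fourth, at chr6:40529277-40529729 with a score of 622, had 8 MYC and 4 MYCN peaks within that distance. In these 3 places the MYC peaks around the site outnumbered the MYCN peaks by at least 2 to 1.

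The fifth site, at chr16:40014729-40015154 with a score of 583, was an exception. It had 3 MYC and 4 MYCN peaks within 50 kb, 3 of the latter unshared, and a strong MYCN-only site lay 23.1 kb away. Similar values were found for the site at chr2:25229814-25230403, which scored 426, with 3 MYC peaks, all shared, and 6 MYCN peaks, 3 of them unshared. With a score of 419, the site at chr16:19319623-19319957 had 5 MYC and 6 MYCN peaks around it. At these 3 sites a strong MYC-only peak lay in a neighbourhood with more MYCN than MYC peaks, the site itself not counted.

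Chromosome 4 held 3 of the 20, all after its first 22 Mb. The site at chr4:39985536-39985925 scored 526, and another MYC peak lay 154 bp from its edge. The site at chr4:40341102-40341430 scored 453 and was the narrowest of the 20, at 329 bp. The site at chr4:41684396-41684858 scored 443, had 1 other MYC peak within 50 kb and was 53.0 kb from the nearest MYCN peak. A further chromosome 4 site at chr4:39851241-39852201, with a score of 160, was the third widest of all, at 961 bp.

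On chromosome 9, 2 of the 20 lay in the same stretch without MYCN peaks. This stretch, chr9:1975082-2137832, was 163 kb long and held 9 MYC peaks, 4 of them strong MYC-only sites. The sites were at chr9:2011599-2012084 with a score of 221, at chr9:2106098-2106483 with 443, at chr9:2108651-2108974 with 111 and at chr9:2128682-2129066 with 470. Higher and lower scores thus alternated along the stretch, and a MYCN peak with a score of 82 at 2137833 closed it.

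The 8 remaining sites of the first 20 were on chromosomes 3, 12, 13, 14, 18, 21 and 24, with scores of 409 to 470. Chromosome 12 held 2, at chr12:3131044-3131636 with a score of 444 and at chr12:32009000-32009521 with a score of 409. On chromosome 24, chr24:38934772-38935473 scored 470, was 702 bp wide and had 6 MYC peaks but 1 MYCN peak within 50 kb. On chromosome 14, chr14:33075378-33075777 scored 428 and had 11 MYC and 6 MYCN peaks there, and the site at chr21:7096385-7096798, with a score of 417, had 12 and 7. On chromosome 3, chr3:9414126-9414769 scored 446 and had 3 MYC peaks and 1 MYCN peak. The closest approach to a MYCN peak among the 20 was 1289 bp, at the site at chr13:587254-587774 with a score of 414. On chromosome 18, chr18:14868789-14869152 scored 425 and had 7 peaks of each list around it.

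The widest strong MYC-only site lay at chr11:14552881-14553945, spanned 1065 bp and scored 272. All 6 MYC peaks within 50 kb of it were shared. The next widest, at chr5:68770770-68771740, spanned 971 bp but scored 130, and 4 of the 9 MYCN peaks within 50 kb were unshared. The site at chr2:131204-132098 spanned 895 bp with a score of 139 and lay 2918 bp from a MYCN peak with a score of 977. The site at chr25:11134682-11135562 spanned 881 bp with a score of 117. Of these 5 widest sites, 4 scored 160 or less, although the median width rose with score over all sites, from 302 bp in the lowest score class to 439.5 bp in the highest.

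MYCN peaks were seldom far from a strong MYC-only site. The median distance to the nearest MYCN peak was 7.29 kb (quartiles 3.72 and 13.9), and 9.54% of sites had one within 2 kb, 63.2% within 10 kb and 98.1% within 50 kb. Of these nearest MYCN peaks, 15.9% (14.5 to 17.3) overlapped no MYC peak, against 18.4% of the whole MYCN list, and their median score was 98. The nearest other MYC peak was at a median of 5.71 kb, against 5.00 kb for the paired MYC peaks. It was shared for 62.7% of the MYC-only sites (60.9 to 64.5) and for 72.8% of the paired MYC peaks (72.3 to 73.2). This difference is partly built in, since a MYC peak wholly within 1000 bp of a site cannot overlap a MYCN peak. The nearest MYC peak was within 2 kb at 16.7% of the sites. A score higher than that of the nearest MYC peak was found at 62.0% of the strong MYC-only sites. The rule partly fixes this share, since sites needed a score of at least 110 and the nearest MYC peak could have any (median 109). It was not computed for paired MYC peaks.

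Isolated sites were few. More than 100 kb separated 8 sites from any MYCN peak, and 13 sites, or 0.479%, had no other peak of either list within 50 kb. The most isolated lay at chr7:18275168-18275695, with a score of 142, 291 kb from the nearest MYCN peak and 170 kb from the nearest MYC peak. It sat in the longest stretch without MYCN peaks that held a strong MYC-only site, 744 kb with 12 MYC peaks, 2 of them such sites. On chromosome 15, the site at chr15:9932985-9933476 scored 110 and was 204 kb from a MYCN peak, in a stretch of 526 kb. On chromosome 14, chr14:41491102-41491377 (score 133) was 127 kb from the nearest peak of either list. On chromosome 22, chr22:28086980-28087238 (score 158) was 114 kb from one. The site at chr20:55913281-55913592, with a score of 145, was 116 kb from a MYCN peak and 50.1 kb from another strong MYC-only site. Less remote were the sites at chr8:5598993-5599399 (score 133) and at chr6:33839971-33840276 (score 183), each 72.6 to 72.7 kb from any peak. Scores at these 7 sites ran from 110 to 183. The site with the score of 904 on chromosome 22 also had no other peak of either list within 50 kb.

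Around strong MYC-only sites, MYC peaks were about as dense as around paired MYC peaks, while MYCN peaks were slightly sparser. Within 50 kb, a MYC-only site had a mean of 7.27 other MYC peaks (SD 3.69 over sites) and 5.71 MYCN peaks (SD 3.10). A paired MYC peak had 7.47 other MYC peaks (SD 3.72) and 6.16 MYCN peaks beyond 1 kb (SD 3.21). Single sites of both kinds overlapped widely in these counts. The unshared MYC neighbours averaged 2.42 around MYC-only sites and 2.12 around paired peaks, and the unshared MYCN neighbours 0.781 and 0.937. The last value includes unshared MYCN peaks within 1 kb of a paired peak, which the rule forbids around MYC-only sites. The means of unshared MYC neighbours are partly tied to the rule too, since a MYC peak wholly within 1000 bp of a site cannot be shared. Fewer MYC than MYCN peaks lay around 15.1% of the MYC-only sites (13.8 to 16.5).

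Between 5 and 50 kb from the site, the density of peaks differed more in the MYCN list than in the MYC list. Nearer, at 2 to 5 kb, MYCN peaks were not sparser, with 54.7 per Mb around MYC-only sites and 54.6 around paired peaks. The MYC densities at 2 to 5 kb were 63.9 and 62.5. At 10 to 20 kb there were 58.7 MYCN peaks per Mb around MYC-only sites and 66.3 around paired peaks, against 76.0 and 78.7 MYC peaks per Mb. At 500 to 1000 kb the MYCN densities were 49.5 and 50.1, and the MYC densities 60.2 and 57.6. The ratio of MYC to MYCN peaks at 10 to 20 kb was 1.30 around MYC-only sites and 1.19 around paired peaks. At 500 to 1000 kb the ratios were 1.22 and 1.15.

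Strong MYC-only sites lay near each other more often than their overall share. The shares below pool neighbours of different scores, although the MYC-only share fell with score. Whether the mix of scores differed near the sites was not tested. Across all MYC peaks, 28.9% overlapped no MYCN peak and 25% had none within 1000 bp. Of the MYC peaks within 50 kb of a strong MYC-only site, 32.7% (32.0 to 33.4) overlapped no MYCN peak. With the strong MYC-only sites themselves left out, the share was 29.2% (28.5 to 29.9), against 25.6% (25.3 to 26.0) of the MYC peaks farther away. Among MYC peaks of at least 110, 11.2% (10.4 to 12.1) of those next in line to a strong MYC-only site were of the same kind, against 6.50% (6.33 to 6.68) of those next to a paired peak. Without chromosome 4 these shares were 10.9% and 6.32%. No minimum distance was set for the shares within 50 kb or next in line. A MYC peak wholly within 1000 bp of a site cannot be shared, so part of these differences is built in by the rule. By distance, the share of MYC-only sites around a strong MYC-only site was 10.7% at 2 to 5 kb, 10.0% at 5 to 10 kb, 11.7% at 10 to 20 kb, 8.96% at 20 to 50 kb and 8.14% at 500 to 1000 kb, against 6.27% to 6.99% around paired peaks. The excess was thus largest within 20 kb and had not reached the level around paired peaks by 1 Mb. These shares by distance were not computed without chromosome 4. They pool chromosomes whose own MYC-only shares ran from 4.80% to 12.6%. Strong MYCN-only sites also lay together: 9.21% (8.20 to 10.3) of the strong MYCN peaks next to one were of the same kind, against 3.86% (3.72 to 4.01) of those next to any other strong MYCN peak. These MYCN shares had no minimum distance either, so their difference is also partly built in. They were not computed without chromosome 4, where 10.2% of the strong MYCN peaks after 22 Mb were MYCN-only.

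**Figure D2:**
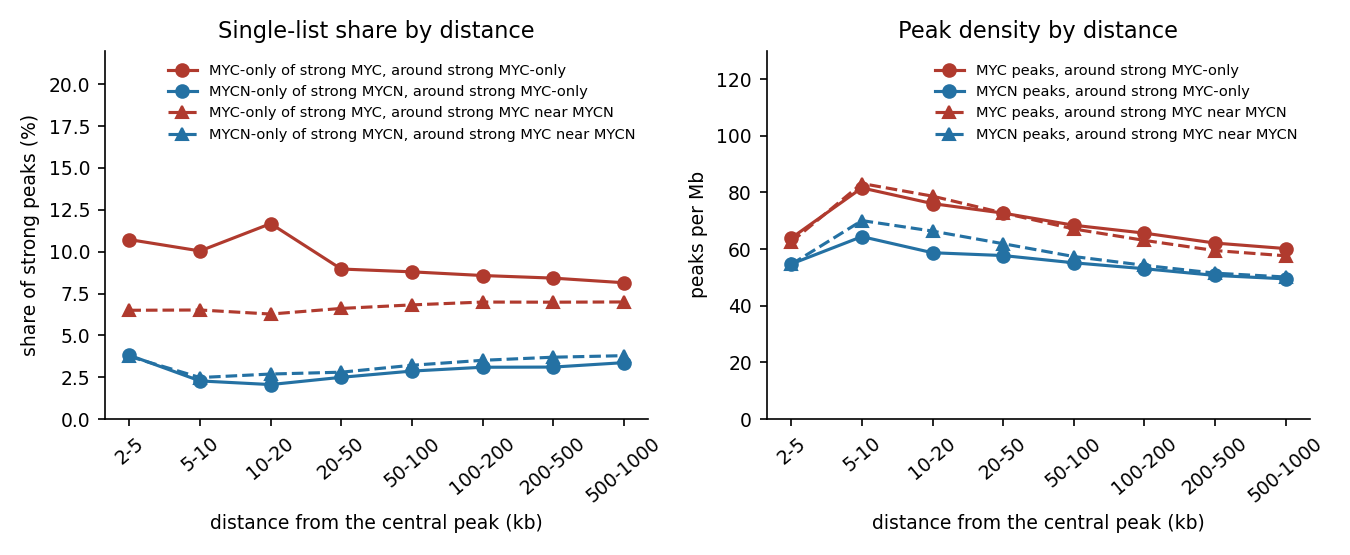
Left, percent of strong MYC peaks that were MYC-only (red) and of strong MYCN peaks that were MYCN-only (blue), by distance in kb from a strong MYC-only site (solid, circles) or a paired MYC peak (dashed, triangles). Right, all MYC and MYCN peaks per Mb by the same distances. The red solid line peaks at 11.7% at 10 to 20 kb and stays above the dashed line, and the MYCN density at 10 to 20 kb is 58.7 around MYC-only sites and 66.3 around paired peaks.

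Among strong MYCN peaks 2 to 10 kb away, the MYCN-only share was about the same around strong MYC-only sites as around paired MYC peaks. Farther away it was slightly lower around the MYC-only sites. The MYCN list had 1402 strong MYCN-only sites among its 34354 peaks of at least its own median score of 99, or 4.08%. Of the strong MYC-only sites, 40 had one within 10 kb, 181 within 50 kb and 358, or 13.2%, within 100 kb. Among strong MYCN peaks 2 to 5 kb from a strong MYC-only site, 3.81% (17 of 446) were MYCN-only, against 3.74% around paired MYC peaks. At 5 to 10 kb the shares were 2.28% (20 of 878) and 2.48%, at 10 to 20 kb 2.06% (33 of 1602) and 2.69%, and at 500 to 1000 kb 3.37% and 3.79%. Intervals were not computed for these shares. The MYCN-only sites resembled their MYC counterparts in width, with a median of 322 bp (quartiles 278 and 397).

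Within 100 kb, 45.6% (43.8 to 47.5) of the strong MYC-only sites had another such site, and 7.92% had one within 10 kb. The median distance to the next was 120 kb (quartiles 38.7 and 280). Within 50 kb, 70.2% of the strong MYC-only sites had no other such site, and 79.2% of the paired MYC peaks had none. No minimum distance was set here, so the rule builds in part of this difference. A value at 100 kb was not computed for paired peaks. Among strong MYCN-only sites, of which there were fewer, 25.1% had another within 100 kb, and the shares with another within 2 kb were 1.84% in MYC and 1.85% in MYCN. When sites with at most 100 kb between them were joined, 1477 sites stood alone and 1239 fell into 499 clusters. Pairs made up 351 of the clusters and triplets 96. The 21 clusters of 5 or more held 125 sites. Gaps of 1000 bp or less separated 20 neighbouring pairs.

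The largest cluster lay at chr23:29426382-29844271, with 11 sites over 418 kb and scores of 110 to 257. In this span the MYC list had 36 peaks, 22 of them unshared, and the MYCN list had 17 peaks, 2 of them unshared. Here and in the clusters below, the MYC counts include the sites that define the cluster, so a MYC surplus is partly built in. Of its 23 MYC peaks of at least 110, 47.8% were strong MYC-only sites. The strongest were at chr23:29730916-29731330, with a score of 257, and at chr23:29450953-29451280, with a score of 222. The sites were 228 to 415 bp wide and lay 1.84 to 20.0 kb from the nearest MYCN peak. They were thus spread through a region that also held shared peaks, not gathered in a single stretch without MYCN peaks.

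The other 9 clusters spanned 121 to 374 kb. On chromosome 11, 7 sites at chr11:39105970-39249089 had scores of 116 to 174. The MYC list had 12 peaks there and the MYCN list 3, and 77.8% of the MYC peaks of at least 110 were strong MYC-only sites, the highest share of the 10 largest clusters. On chromosome 24, 7 sites at chr24:27606183-27757803 had scores of 111 to 289, and the MYC list had 17 peaks against 4 in MYCN. This cluster held the wide sites at chr24:27742424-27743240 (817 bp, score 207) and at chr24:27756984-27757803 (820 bp, score 176), and its highest score was at chr24:27651876-27652491. In both places few MYCN peaks were called at all.

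On chromosome 20, 7 sites lay at chr20:31921254-32052937 with scores of 127 to 236, among 19 MYC and 9 MYCN peaks. A second cluster on that chromosome, with 6 sites at chr20:2468330-2612845 and scores of 126 to 209, held 19 MYC and 14 MYCN peaks. The MYCN peaks of both clusters were all shared. On chromosome 4, 7 sites at chr4:6827592-7201868 had scores of 110 to 202, among 34 MYC and 19 MYCN peaks. On chromosome 13, 6 sites at chr13:25546914-25667995 had scores of 110 to 146, and 5 of them followed each other within 33.0 kb with no paired MYC peak of at least 110 between them.

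Chromosome 22 held a cluster of 6 sites at chr22:12606458-12740627 with scores of 111 to 201, in which 3 of 8 MYCN peaks were unshared and 1 was a strong MYCN-only site. It was the one cluster of the 10 with such a site. The cluster at chr8:9896664-10079524 had 6 sites with scores of 114 to 250, and the cluster at chr19:32790447-32984217 had 6 with scores of 119 to 321. The score of 321, at chr19:32900430-32900803, was the highest of any site in these 10 clusters. The leading sites by score were therefore not members of these 10 clusters. Large clusters held few sites, since all 21 clusters of 5 or more held 125 of the 2716. With so few sites in them, the absence of the leading sites is not informative. Whether score and clustering were linked was not tested.

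**Figure D3:**
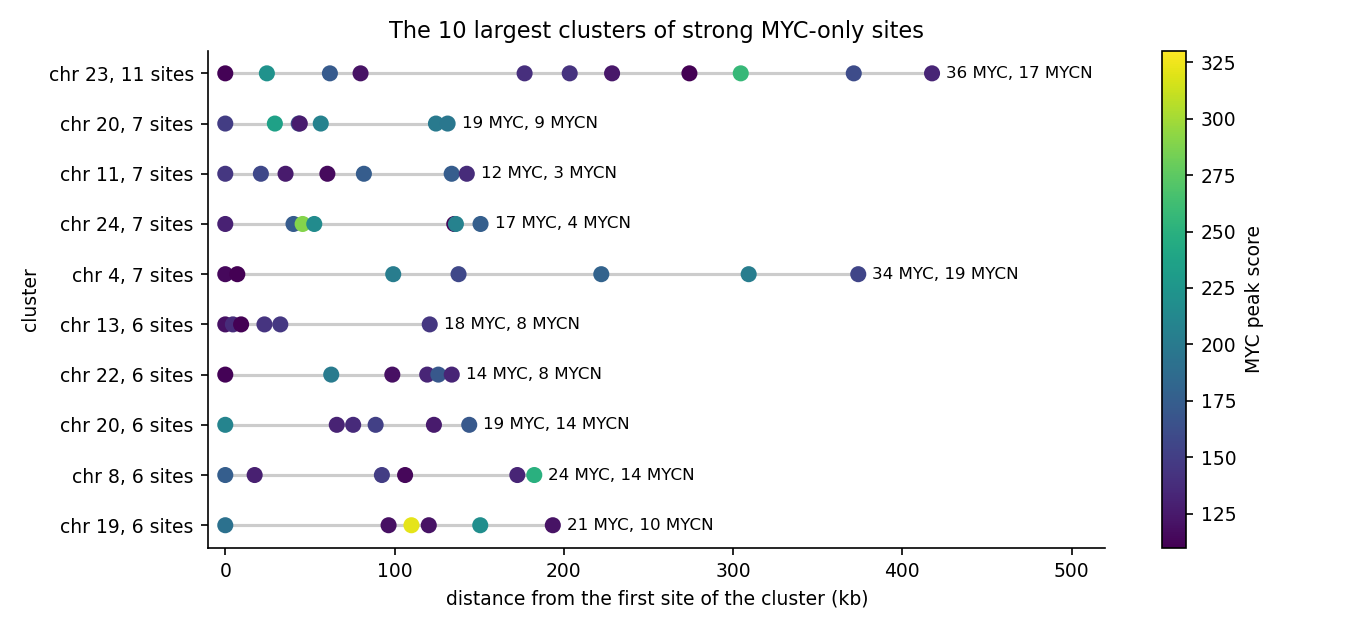
The 10 clusters with most strong MYC-only sites, joined where at most 100 kb lay between sites; each point is 1 site, placed by its distance in kb from the first site of its cluster and coloured by MYC score. Text gives all MYC and MYCN peaks in the span, and the MYC counts include the sites that define the cluster. The chromosome 23 cluster has 11 sites over 418 kb. MYC counts are the higher in all 10 spans, which is partly built in by that choice.

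Stretches between neighbouring MYCN peaks that held a strong MYC-only site had a median length of 30.4 kb (quartiles 17.3 and 54.0), against 11.1 kb for all intervals between MYCN peaks. Longer intervals have more room for a site, and the rule needs 1000 bp free on both sides. Of 2494 such stretches, 1272, or 51.0%, held no other MYC peak. More than 1 strong MYC-only site was found in 199, and 4 were found in 2. Besides the chromosome 9 stretch, these were 4 sites on chromosome 22 within chr22:7964333-8098073. They were packed at chr22:8044116-8051344 with scores of 223, 120, 162 and 207, at least 46729 bp from a MYCN peak. These stretches were singled out after their values were seen.

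Along the genome in windows of 1 Mb, 339 of 1369 windows with a MYC peak of at least 110 held no strong MYC-only site. The 151 windows with 5 or more held 33.9% of all sites. The fullest were 27 to 28 Mb of chromosome 24 and 29 to 30 Mb of chromosome 23, with 12 sites each among 47 and 54 MYC peaks of at least 110. They contain the clusters described above and held 1 and 0 strong MYCN-only sites. At 2 to 3 Mb of chromosome 19, 10 of 23 such MYC peaks, or 43.5%, were strong MYC-only sites, with scores of 110 to 222. That window had 41 MYC peaks and 21 MYCN peaks in all. A further window of chromosome 19, at 32 to 33 Mb, held 10 sites, as did the window at 40 to 41 Mb of chromosome 16. The window at 25 to 26 Mb of chromosome 13, with 104 MYC peaks in all, also held 10.

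Between chromosomes, the share of MYC peaks of at least 110 that were MYC-only was highest on chromosome 4, at 12.6% (10.9 to 14.5), followed by chromosome 24 at 8.92% (7.46 to 10.6) and chromosome 16 at 8.20% (7.01 to 9.58). These were the 3 chromosomes whose interval lay above the overall 6.83%. Chromosome 1 had the lowest share, 4.80% (3.90 to 5.90). The next lowest were 4.95% on chromosome 12 (3.93 to 6.21) and 5.15% on chromosome 9 (4.19 to 6.33). The MYC-only share exceeded the corresponding MYCN-only share on 24 chromosomes, as it did over all chromosomes, 6.83% against 4.08%. On chromosome 12 it did so by little, 4.95% against 4.81%. Chromosome 1 was the exception, with 5.40% of its strong MYCN peaks MYCN-only. All chromosomes come from the same libraries, so these are not separate observations. The MYC-only shares here, by window and along chromosome 4 pool all scores of at least 110, although the share fell with score. Whether the mix of scores differed between regions was not tested. The terminal 2 Mb of the chromosomes, with 7.07% (6.28 to 7.95), were close to the rest, with 6.80% (6.55 to 7.06).

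**Figure D4:**
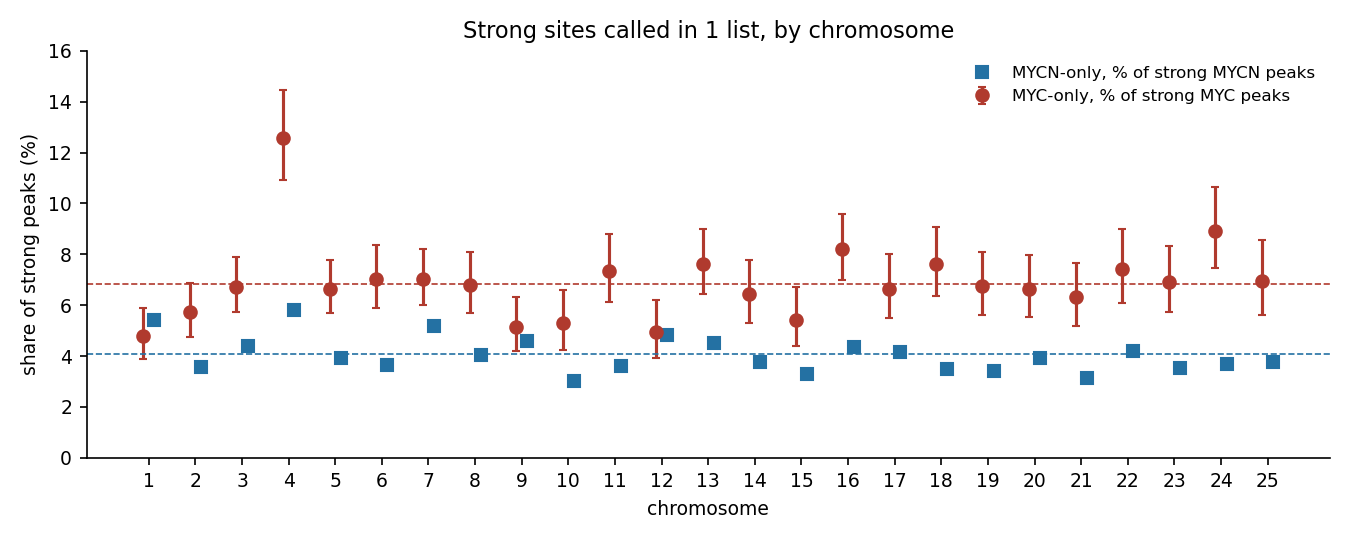
Percent of MYC peaks of at least 110 that were MYC-only (red, 95% Wilson intervals) and of MYCN peaks of at least 99 that were MYCN-only (blue, no interval drawn), by chromosome; dashed lines are the shares over all chromosomes, 6.83% and 4.08%. Chromosome 4 stands highest for MYC at 12.6%.

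Chromosome 4 had a high share of MYC-only sites both in its first 22 Mb and after it, where the share was uneven. The share of strong MYCN-only sites was low in the first 22 Mb and high after it. The long arm of this chromosome is known in zebrafish as late-replicating heterochromatin. In the first 22 Mb, a limit taken from earlier results of these data, 116 of 880 MYC peaks of at least 110 were MYC-only, or 13.2% (11.1 to 15.6), while 2.04% (1.15 to 3.62) of 538 strong MYCN peaks were MYCN-only. After 22 Mb, 55 of 479, or 11.5% (8.93 to 14.6), were MYC-only, and 10.2% (7.75 to 13.3) of 461 strong MYCN peaks were MYCN-only. Over all chromosomes the MYCN-only share was 4.08%, which lay above the interval of the first 22 Mb and below that of the rest. The difference between the parts of the chromosome was not tested.

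The sites after 22 Mb also had emptier surroundings. They had a median of 3 other MYC and 2 MYCN peaks within 50 kb, against 9 and 6 in the first 22 Mb. Their median distance to a MYCN peak was 12.4 kb (7.43 to 20.5), against 6.97 kb (5.58 to 8.18). Their scores had a median of 150 and reached 526, and those of the first 22 Mb had a median of 145 and reached 355. Taken in 5 Mb steps, between 9.62% and 15.2% of the strong MYC peaks were MYC-only in the 5 steps up to 25 Mb, 4.21% at 25 to 30 Mb and 16.7% to 31.4% in the 5 steps from 30 to 55 Mb. The highest share, at 50 to 55 Mb, was 11 of 35 peaks and had an interval of 18.6 to 48.0. At 55 to 60 Mb, 5 of 65 peaks, or 7.69% (3.33 to 16.8), were MYC-only. In the last step, 1 of 56 peaks was MYC-only. Among the steps from 25 Mb on, shares well above the overall 6.83% were thus seen from 30 to 55 Mb alone.

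**Figure D5:**
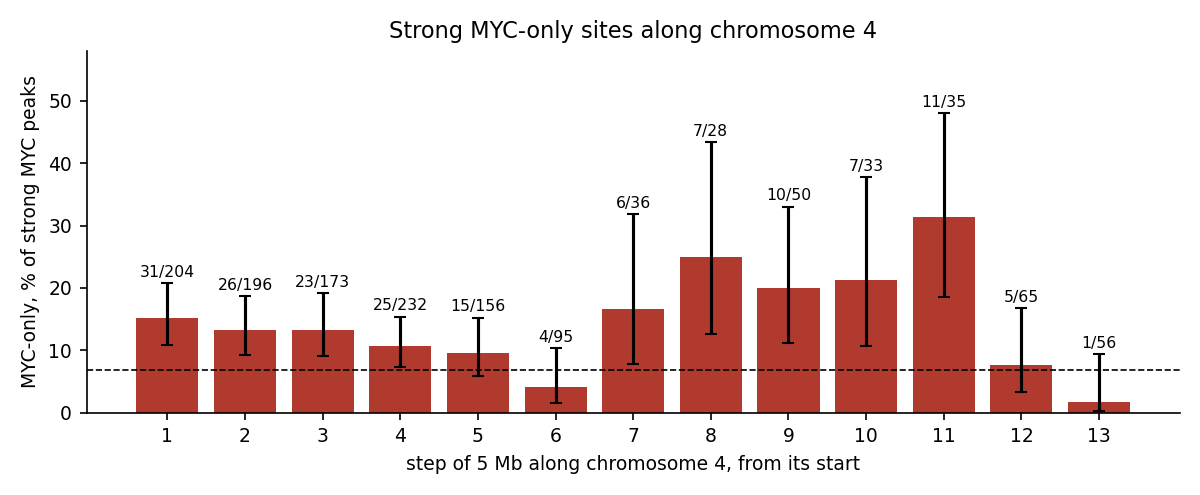
Percent of MYC peaks of at least 110 that were MYC-only in consecutive steps of 5 Mb along chromosome 4, with 95% Wilson intervals and the counts above each bar; the dashed line is the share over all chromosomes, 6.83%. The share is 9.62% to 15.2% in the first 5 steps and reaches 31.4% in the step that ends at 55 Mb, where peaks are few.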

How the data were processed

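Peaks of 2 ATAC-seq libraries were compared, 1 from MYC and 1 from MYCN transgenic fish. Per the submitters' processing notes, Bowtie2 2.2.1, MACS2 2.1.0 and the zebrafish build danRer7 were used; the calling settings, Tn5 shift, duplicate removal and any control are not stated there. What the authors deposited is a peak list for each library, called per sample, with a whole-number score per peak whose scale no header states; its lowest value was 13 in both. Depth is unknown. Positions are danRer7, with starts counted from 1. A genome and annotation of danRer7 were not used here, so no sequences or genes are given.

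Distances are the bases between peak edges, computed in Python 3.11.15 with numpy 2.4.6, pandas 2.3.3 and scipy 1.17.1. The distance code was tested on simulated data, and bedtools 2.31.1 gave the same 2716 sites. Peaks overlapping by at least 1 bp are called shared. Shares have Wilson intervals and medians order-statistic intervals. No test was made, since each transgene had 1 library. Distance profiles start at 2 kb, beyond the 1000 bp around each site that the rule empties of MYCN peaks. The rule for named sites took the 20 highest-scoring, the 5 widest, the 5 farthest from MYCN peaks and from any peak, the 10 largest clusters, the fullest windows (6, because of ties) and the 3 highest and lowest chromosomes. Sites, lists and rules were chosen with earlier results of these data known. Figures were drawn with matplotlib 3.10.9.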

Additional observations from a re-analysis of the deposited data

How the results depend on the processing

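Merging peaks closer than 100 bp and leaving out chromosome 4, the latter chosen after seeing the data, kept all 6 results listed here within their intervals or within 1.5 times the count. With overlap alone excluding a peak, there were 3121 sites (7.84% of strong MYC peaks), with a median width of 315 bp, a median distance to MYCN of 6109 bp, 49.2% with another site within 100 kb and 31.9% of neighbouring MYC peaks unshared. With 5000 bp, the values were 1803 sites, 4.53%, 328 bp, 10944 bp, 34.8% and 34.8%. With the 75th percentile score of 227 as the minimum, they were 229 sites, 1.17%, 385 bp, 9156 bp, 6.11% and 36.8%. Fewer sites by construction have fewer sites near them. Sites linked within 50 kb and 200 kb were 29.8% and 65.2%, and unshared neighbours within 20 kb and 100 kb were 34.3% and 31.8%. Of these settings, the score minimum moved the count of sites most, and the effect of depth, which is unknown, was not tested. Leaving out a replicate was not possible. No paired analysis was possible because there was a single library of each transgene.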
